A study of Homo sapiens with 17 samples.

Results

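The genes of the proteasome were followed in YB5 cells over a time course of toyocamycin. Members were taken by symbol: PSMA, PSMB, PSMC, PSMD, PSME, PSMF or PSMG followed by digits only, together with NFE2L1, NFE2L2, POMP and ADRM1. This gave 52 of the 19141 genes in the count table. They fell into 7 alpha and 7 constitutive beta subunits of the 20S core, 3 immunoproteasome subunits, 2 tissue-restricted core subunits, 6 ATPases and 12 other subunits of the 19S regulatory particle, 3 factors of 19S assembly, 5 factors of 20S assembly, 5 genes of other caps and the PI31 inhibitor, and 2 transcription factors. YB5 is a single line derived from the human colon cancer line SW48 that carries a silenced green fluorescent protein reporter behind a cytomegalovirus promoter, so both arms share that insertion and 1 genetic background. Polyadenylated RNA was sequenced after 250 nM toyocamycin, an adenosine analogue, or after its solvent DMSO, in 17 libraries. Each arm had 2 libraries for the 2 h time point, a single library for 24 h, a single library for 48 h and 3 for 72 h, while 10 h had 2 toyocamycin libraries and 1 DMSO library. The last time point, 72 h in the labels and 96 h as published, is called 72 h throughout.

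Between 8735465 and 22121364 counts per library fell on genes. Toyocamycin replicate 2 at 10 h stood apart: it had the lowest total, and 2.54% of its genes had no count, against 13.5% to 29.8% in the other 16 libraries. Replicate 2 of each arm at 2 h and 10 h was from batch 2 and the other 13 libraries from batch 1. The labels do not tie replicates to separate cultures, so p-values measure the spread between these libraries, which may be technical. The cells carried epithelial markers: EPCAM lay between 253 and 315 CPM (counts scaled to the size of the library) and CDH1 between 258 and 397 CPM in the 8 DMSO libraries. CDX1 had no count in 16 of the 17 libraries, and KRT20, like CDX1, did not pass the filter on low counts for the 72 h test. The summed CPM of the 10 colon epithelium markers was 1760 to 6931 in DMSO and 532 to 563 in toyocamycin at 72 h. Of the 8 markers that could be tested at 72 h, 6 were called lower and 2 higher. Summed markers of other cell types were low throughout. The 5 fibroblast markers reached 11.6 CPM in DMSO and 21.1 CPM in toyocamycin, with all 4 tested members called higher at 72 h. The 5 leukocyte markers reached 0.591 and 5.19 CPM, with 2 of 3 tested members higher, and the 3 endothelial markers 0.617 and 12.3 CPM, with 1 of 2 higher. Their part in the values given here was not tested, and in bulk RNA fewer cells of a type and less RNA per cell cannot be told apart.

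The 20S core is a barrel of 4 rings that degrades proteins inside it: the outer alpha rings gate the entry and the inner beta rings hold the catalytic sites, in PSMB5, PSMB6 and PSMB7. The 19S particle caps the barrel, binds ubiquitin, removes it and feeds the unfolded substrate through its ring of ATPases. Interferon replaces the catalytic subunits by PSMB8, PSMB9 and PSMB10 and the cap by PSME1 and PSME2, which favours peptides for antigen presentation. NFE2L1 is the transcription factor that raises the subunit genes together when proteasome activity falls, through antioxidant response elements, and NFE2L2, its relative, answers to oxidative stress through the same element.

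Promoters of 5 members are shown because they carry the same element before genes that ended on opposite sides at 72 h. They are the 250 bases before the start of the gene from RefSeq (GRCh38.p14), 5′ to 3′ on the strand of the gene, and capitals mark each match to the motifs described next.
ADRM1, chr20:62302646-62302895, plus strand: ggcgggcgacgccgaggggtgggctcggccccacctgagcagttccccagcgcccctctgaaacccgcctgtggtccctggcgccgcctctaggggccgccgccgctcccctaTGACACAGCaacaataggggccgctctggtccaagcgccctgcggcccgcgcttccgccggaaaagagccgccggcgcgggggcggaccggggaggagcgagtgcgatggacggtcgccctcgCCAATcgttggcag
PSMD12, chr17:67366578-67366827, minus strand: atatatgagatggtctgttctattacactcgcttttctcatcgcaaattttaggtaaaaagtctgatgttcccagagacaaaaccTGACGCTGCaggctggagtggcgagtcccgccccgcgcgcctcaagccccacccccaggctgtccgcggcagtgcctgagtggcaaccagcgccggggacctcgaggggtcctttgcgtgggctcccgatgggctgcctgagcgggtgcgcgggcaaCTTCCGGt
PSMB3, chr17:38752491-38752740, plus strand: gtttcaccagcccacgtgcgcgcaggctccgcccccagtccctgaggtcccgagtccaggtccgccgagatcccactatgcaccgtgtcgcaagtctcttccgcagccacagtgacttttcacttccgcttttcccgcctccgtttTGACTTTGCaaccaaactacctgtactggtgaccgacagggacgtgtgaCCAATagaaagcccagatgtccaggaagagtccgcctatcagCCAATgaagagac
PSMG1, chr21:39183452-39183701, minus strand: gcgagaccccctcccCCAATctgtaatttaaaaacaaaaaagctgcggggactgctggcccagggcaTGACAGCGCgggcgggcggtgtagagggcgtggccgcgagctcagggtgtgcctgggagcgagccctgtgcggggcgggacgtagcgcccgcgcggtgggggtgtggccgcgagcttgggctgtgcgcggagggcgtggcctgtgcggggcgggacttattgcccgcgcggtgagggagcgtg
PSME2, chr14:24146611-24146860, minus strand: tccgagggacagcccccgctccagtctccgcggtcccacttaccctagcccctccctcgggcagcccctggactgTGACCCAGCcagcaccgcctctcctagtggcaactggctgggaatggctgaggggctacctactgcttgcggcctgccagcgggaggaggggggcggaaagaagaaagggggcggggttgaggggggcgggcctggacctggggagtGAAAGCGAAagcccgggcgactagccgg

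ADRM1 and PSMD12 were called higher at 72 h, and PSMB3, PSMG1 and PSME2 lower. Each of the 5 holds a match to the core of the antioxidant response element, TGACNNNGC. It starts 137 bases before the gene in ADRM1, 165 in PSMD12, 104 in PSMB3, 183 in PSMG1 and 175 in PSME2. ADRM1, PSMB3 and PSMG1 also hold the NF-Y box CCAAT, PSMD12 the ETS site CCGGAAG on the other strand, and PSME2 the interferon-stimulated response element GAAANNGAA 28 bases before its start. No match of a motif overlapped that of another in these sequences.

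Promoter windows, 250 bases before to 50 after the start, were found for 46 of the 52 members, in 58 windows; PSMA7, PSMB1, PSMB6, PSMB7, PSMD4 and PSMG3 were not matched. The antioxidant response element core was in 29.3% of the members' windows, on either strand, and in 13.3% of all 35116 windows. Of the 16 members with it, 6 were called higher at 72 h and 10 lower. The NF-Y box was in 39.7% of members' windows against 34.6% of all, with 10 of its 22 members higher and 10 lower. The ETS site was in 29.3% against 10.3%, with 11 of its 17 members higher, among them PSMD6, PSMD7, PSMD12 and PSMD14, and 2 lower, PSMD8 and PSME4. The interferon-stimulated response element was in 15.5% against 8.11%, with 3 of 9 members higher (POMP, PSMC2 and PSMG4) and 6 lower. The lower ones were PSMA4, PSMB4, PSMB8, PSMB10, PSME1 and PSME2, and PSMB9 held no match. With the 250 bases before the start alone, PSMB8, PSMC2 and PSME1 lost theirs. The gamma-activated site TTCNNNGAA, which can share bases with the interferon-stimulated response element, was in 13.8% against 7.66%, with 2 of 8 members higher and 5 lower. Over all genes tested at 72 h, 47% were called higher and 41.9% lower, so most genes with any motif have a call. These are counts of letters, and binding was not measured.

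At 2 h NFE2L2 was the member called. Its level was 53.3 and 51.5 CPM in DMSO and 29.9 and 29.8 CPM in toyocamycin, with no overlap. The log2 fold change was -0.81 ± 0.15 (SE; adjusted p = 0.00361, edgeR quasi-likelihood test, Benjamini-Hochberg over 14491 genes). Of the 50 members that passed the filter on low counts, 1 was thus lower and 0 were higher at an adjusted p under 0.1; 1 member was higher at an unadjusted p under 0.05, and DESeq2 also called 0 higher and 1 lower. Across all genes 0.518% were called higher and 8.42% lower. The median log2 fold change of the members was 0.12, with 38 of 50 above 0, against 0.02 over all genes.

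Within the role groups the fitted values at 2 h lay close together. In the 20S core all 14 constitutive subunits were above 0, from 0.04 ± 0.17 in PSMB1 to 0.48 ± 0.35 in PSMA2, and none was called; PSMA5, PSMB1, PSMB2, PSMB5 and PSMB6 were below 0 on the mitochondrial scale, for which libraries were scaled on the 13 mitochondrially encoded genes. The 6 ATPases ran from -0.04 in PSMC1 to 0.15 in PSMC4 and the 12 other 19S subunits from -0.33 in PSMD12 to 0.24 in PSMD4. PSMD4, a ubiquitin receptor, had 133 and 130 CPM in DMSO and 140 and 170 CPM in toyocamycin, and PSMC4 had 152 and 129 CPM in DMSO and 154 and 158 CPM in toyocamycin. In PSMD4 and PSMC4 the arms did not overlap, though neither passed the test. The assembly factors ran from -0.13 in PSMD5 to 0.28 in PSMD9, and the caps from -0.12 in PSME4 to 0.32 in PSME2. NFE2L1 stayed at 244 and 239 CPM in DMSO and 230 and 238 CPM in toyocamycin, where the arms do not overlap but differ by -0.04 ± 0.13.

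The libraries at 2 h were paired by batch, and a fit with that replicate block used the 2 h libraries alone. It called 4 members higher (PSMB8, PSMB9, PSME1 and PSME2) and 2 lower (NFE2L2 and PSMD12), where 1033 of all 11848 genes tested were called higher and 2217 lower. The same libraries without the block gave 17 and 738 of all genes, and a batch term over all 17 libraries gave 62 and 1194 of 16521. The spread in the block fit rests on fewer libraries than in the main fit. PSMB9, an interferon-inducible catalytic subunit, had 13.4 and 12.7 CPM in DMSO and 17.5 and 18.9 CPM in toyocamycin. Its log2 fold change was 0.48 ± 0.18 in the main fit of 14 libraries (adjusted p = 0.186, edgeR) and 0.46 in the block fit (adjusted p = 0.0139, edgeR). PSMD12, a scaffold subunit of the 19S lid, was at -0.33 in the main fit (adjusted p = 0.404, edgeR) and -0.34 in the block fit (adjusted p = 0.016, edgeR). NFE2L2 missed the threshold on the mitochondrial scale, which left 0 members lower.

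At 10 h the members had split. Of 51 tested, 12 were higher and 11 lower, 23.5% and 21.6%, where all genes gave 20.4% and 24.4%. Of the 14 constitutive core subunits 6 were higher and 0 lower (0 also at an unadjusted p under 0.05 and by DESeq2), and of the 18 19S subunits 1, PSMD8, was higher and 5 lower. The core count moved with the scale, to 2 higher and 4 lower with total counts alone and to 0 higher and 1 lower on the mitochondrial scale, whereas the 19S gave 0 higher and 10 lower and 0 higher and 8 lower there. Of all 16521 genes, 1872 were higher and 5676 lower with total counts alone, and 503 and 5362 on the mitochondrial scale. The higher core genes were PSMA2, PSMA6, PSMA7, PSMB2, PSMB4 and PSMB6. PSMA7, an alpha subunit, had 190 CPM in the DMSO library and 580 and 342 CPM in the toyocamycin libraries, a log2 fold change of 1.28 ± 0.29 (adjusted p = 0.00297, edgeR, 2 libraries against 1). The 5 lower 19S genes were PSMC1, PSMC6, PSMD6, PSMD7 and PSMD11. PSMC6, an ATPase, had 87.9 CPM in DMSO and 31.3 and 26.3 CPM in toyocamycin, a log2 fold change of -1.61 ± 0.27 (adjusted p = 0.000249). Of the assembly factors, POMP and PSMD9 were higher and PSMD5, PSMG1, PSMG2 and PSMG3 lower. PSME1 and PSME2, the interferon-inducible cap, were both higher, at 1.02 ± 0.27 and 0.83 ± 0.30, while the nuclear caps PSME3 and PSME4 were lower, at -0.91 ± 0.23 and -2.49 ± 0.25.

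Of the catalytic subunits and transcription factors, 2 were called at 10 h, PSMB6 and NFE2L2, and with 2 libraries against 1 a missing call does not show an equal level. PSMB5 had 111 CPM in DMSO and 118 and 98.6 CPM in toyocamycin, PSMB7 152 against 189 and 217 CPM, and PSMB8 55.004 against 68.9 and 74.8 CPM, none of them called. PSMB6, at 110 CPM against 200 and 166 CPM, was the catalytic subunit called higher (0.74 ± 0.24, adjusted p = 0.0224, edgeR). PSMB9 had 15.1 CPM against 14.7 and 11.4 CPM and PSMB10 2.28 CPM against 4.35 and 3.76 CPM, and the immunoproteasome gave 0 calls with edgeR, 1 gene higher at an unadjusted p under 0.05 and 2 higher with DESeq2. NFE2L2 had turned from its low level at 2 h to 110 and 65.2 CPM against 51.5 CPM in DMSO (0.77 ± 0.28, adjusted p = 0.0411). NFE2L1 stood at 272 and 271 CPM against 246 CPM and was not called.

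These calls at 10 h rest on a single DMSO library. Within batch 2, which leaves out toyocamycin replicate 1, 11 members were higher (8 of them the same as above) and 14 lower (11 the same), where 6447 of all 16500 genes were higher and 4456 lower. Without replicate 2, the library that stood apart, a toyocamycin library of batch 1 met the DMSO library of batch 2. Treatment and batch cannot be told apart there. The median log2 fold change was then 0.12 in the members and 0 over all genes. A fit on the 10 h libraries alone ended most calls, with 2 members higher and 5 lower, against 1300 and 2320 of all 14566 genes. In all of these, the lone library of an arm was assumed to vary like the other groups. The direction of the higher calls depends on scale: the counts were 18 higher and 9 lower with DESeq2 size factors, 4 and 22 with total counts alone and 1 (PSMD9) and 15 on the mitochondrial scale, where 8 of the 12 turned negative (PSMB2, PSMB4, PSMB6, PSMD8, POMP, PSME1, PSME2 and NFE2L2). In the same order, all 16521 genes gave 4258 and 3370, 1872 and 5676, and 503 and 5362. POMP also spread widely, with 145 and 76.8 CPM in the toyocamycin libraries against 58.9 CPM in DMSO, and lost its call without replicate 1, as did PSMB2, PSMD8 and NFE2L2.

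**Figure D1:**
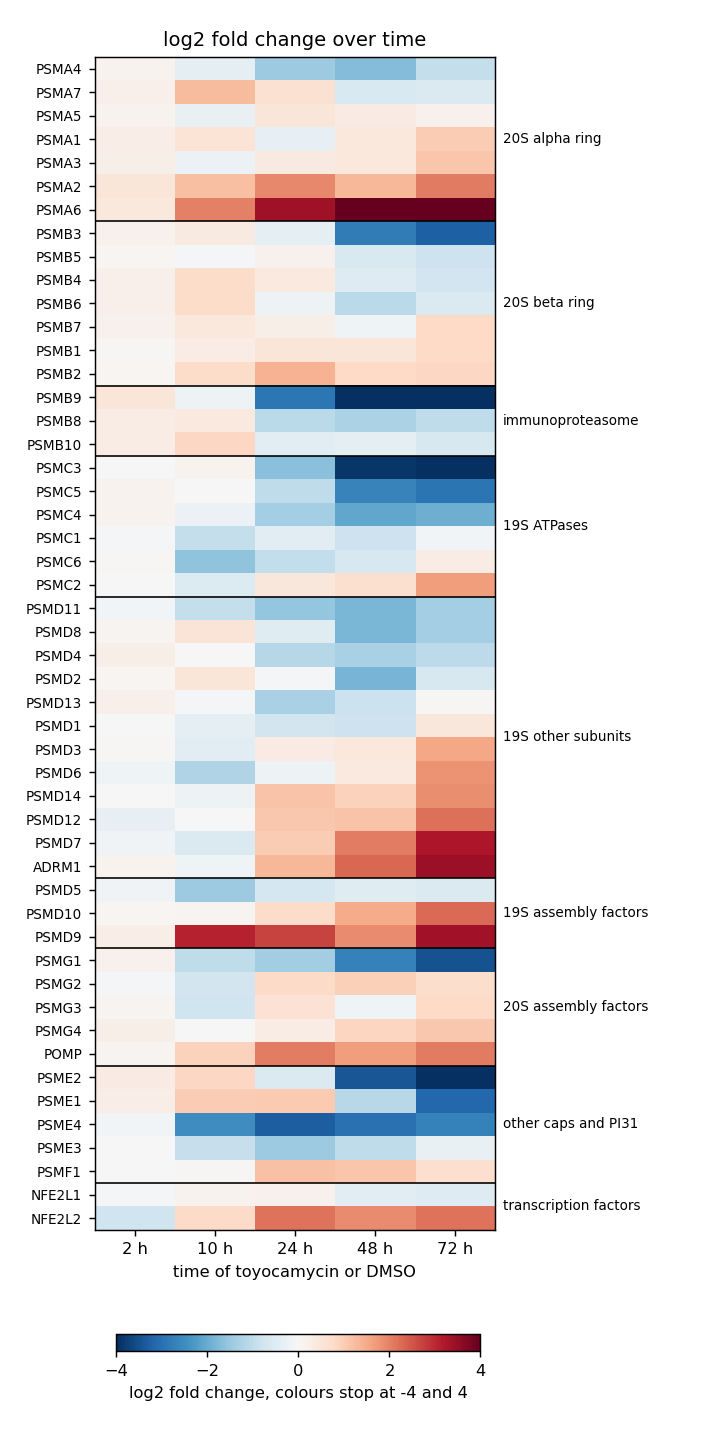
Fitted log2 fold change of toyocamycin against DMSO for the 50 tested members (rows, by role) at 5 time points (columns), red for higher and blue for lower, with colours that stop at -4 and 4. The column of 2 h is nearly white, and at 72 h most role groups hold both red and blue rows, while the 3 immunoproteasome rows are all blue.

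At 24 h and 48 h each arm was a single library, so fitted fold changes are given without a test. At 24 h 12 members were more than 2-fold higher and 12 more than 2-fold lower, 24% of the 50 each way, against 29.7% and 27.8% of all genes. At 48 h 10 were higher and 17 lower, against 38.1% and 29.9%. Among the higher at 24 h were NFE2L2, at 212 CPM against 46.6 CPM, and POMP, at 233 against 56.5 CPM. Among the lower were PSME4, at 5.27 against 51.7 CPM, and PSMB9, at 2.19 against 16.3 CPM. These 4 values lay outside the range of the DMSO libraries at the other time points as well. The counts moved with the scale, to 4 higher and 24 lower at 24 h and 6 and 26 at 48 h with total counts alone, and to 1 and 43, then 1 and 37, on the mitochondrial scale. DESeq2 size factors gave 12 and 9 at 24 h and 14 and 14 at 48 h. The median log2 fold change over all genes moved too. At 24 h it went from 0 to -0.91 with total counts alone and to -2.16 on the mitochondrial scale. At 48 h it went from 0.16 to -0.41 and -1.64. The share of all genes past 2-fold was not taken on these scales.

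At 72 h almost every member had changed, as had most genes, and the members had parted in equal numbers. Together they held 0.610% to 0.644% of all counts in DMSO and 0.547% to 0.598% in toyocamycin, after 0.354% in the toyocamycin library at 24 h and 0.432% at 48 h. Of 50 tested, 23 were higher and 23 lower, 46% each way, where 47% and 41.9% of all genes were called. The remaining 4 (PSMA5, PSMC1, PSMC6 and PSMD13) passed in neither direction. Fitted log2 fold changes ran from -5.70 in PSME2 to 6.55 in PSMA6. Their median was 0.10, against 0.18 over all genes, and the median of their sizes regardless of sign was 1.10, against 1.93. Scaling moved the median of all genes from 0.18 to 0.50 with DESeq2 size factors, to -0.42 with total counts alone and to -0.89 on the mitochondrial scale, and 36 of the 46 members kept their sign under all of these. The calls were 26 higher and 19 lower with DESeq2 size factors, 16 and 26 with total counts alone, and 10 and 26 on the mitochondrial scale. In the same order, all 14491 genes gave 7447 and 5379, 5657 and 7297, and 4204 and 7362.

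**Figure D2:**
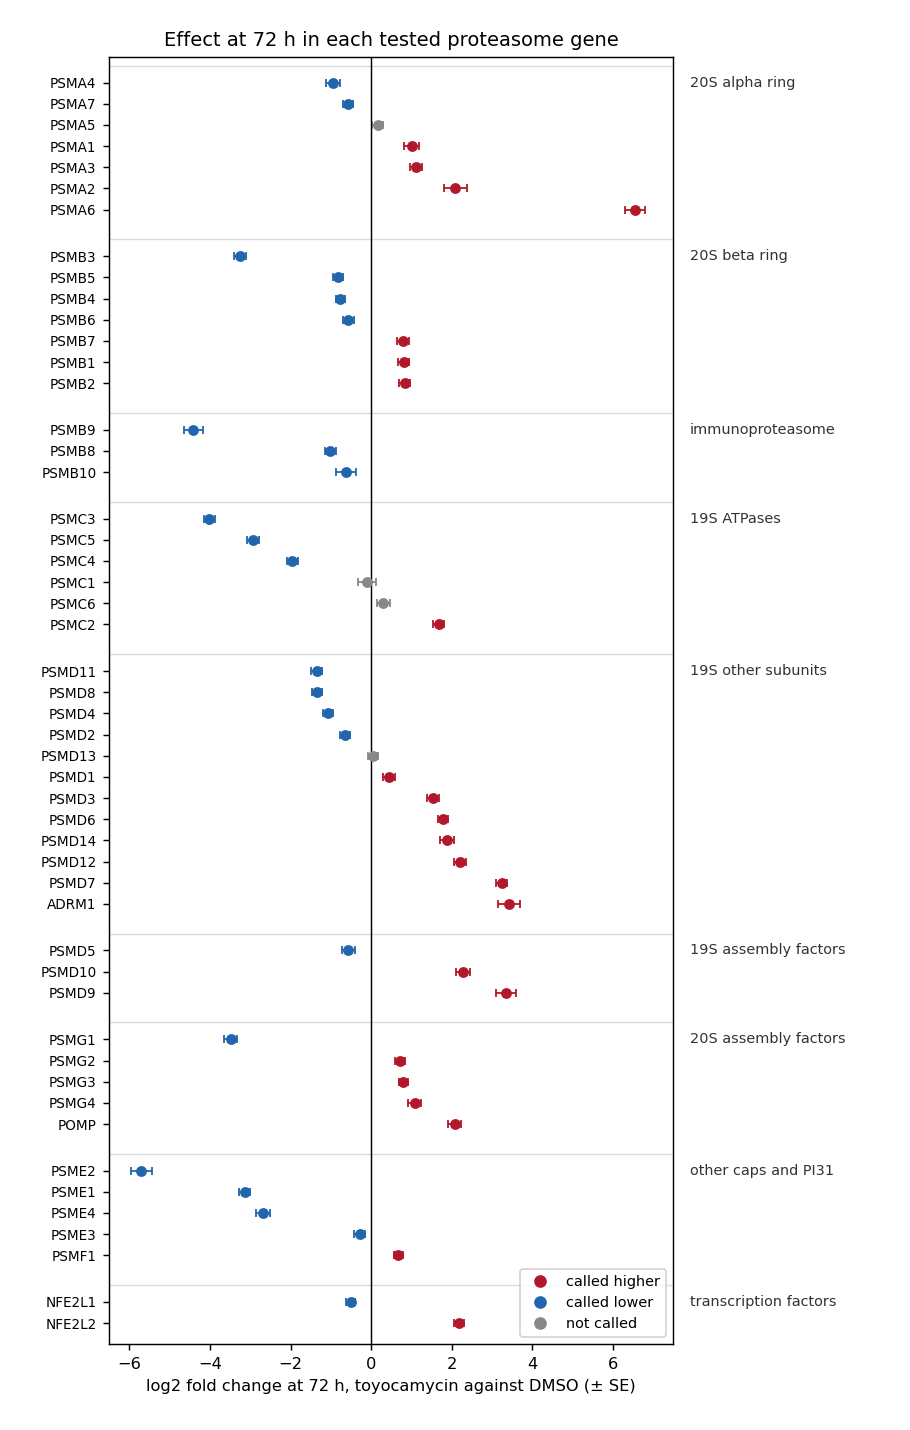
Log2 fold change at 72 h (toyocamycin against DMSO, 3 libraries each, horizontal axis) with its SE for the 50 tested members, grouped by role and ordered within each group. Points called higher are red (23), called lower blue (23) and not called grey (4), and 8 of the 9 role groups shown, all but the immunoproteasome, hold both red and blue points.

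In the alpha ring, which gates the core, 4 of 7 members were higher and 2 lower. PSMA3 rose from 86.2, 84.4 and 104 CPM in DMSO to 219, 188 and 186 CPM, a log2 fold change of 1.11 ± 0.14 (adjusted p = 2.48e-06, edgeR). PSMA4 was 119, 127 and 148 CPM in DMSO and 74.5, 62.1 and 68.8 CPM in toyocamycin, at -0.94 ± 0.18 (adjusted p = 0.000147). PSMA7, the most abundant member per transcript length in DMSO, was at -0.57 ± 0.12. The largest change belonged to PSMA6 (chr14:35278633-35317493), which went from 1.86, 0.962 and 0.929 CPM to 123, 120 and 105 CPM, 93.5-fold higher (log2 6.55 ± 0.25). PSMA1 (1.0 ± 0.19, but -0.04 on the mitochondrial scale) and PSMA2 (2.09 ± 0.29) were also higher. These 3 have 81.4%, 67.0% and 100% of their canonical transcript (PSMA6, PSMA1 and PSMA2 in that order) inside exons of another gene on the same strand in the GENCODE annotation, where counting per gene leaves out shared reads, so their levels and changes are uncertain.

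In the constitutive beta ring 3 members were higher and 4 lower, and the catalytic subunits did not move as a unit. PSMB5, the chymotrypsin-like subunit, had 150, 151 and 145 CPM in DMSO and 91.1, 79.9 and 82.3 CPM in toyocamycin, at -0.82 ± 0.12 (adjusted p = 1.01e-05, edgeR). PSMB6, the caspase-like subunit, had 154, 173 and 152 CPM against 109, 100.03 and 115 CPM, at -0.56 ± 0.13 (adjusted p = 0.000727). PSMB7, the trypsin-like subunit, had 150, 169 and 166 CPM against 286, 277 and 276 CPM, at 0.79 ± 0.15 (adjusted p = 0.000142), but -0.28 on the mitochondrial scale. PSMB2, a structural subunit with the highest fitted fold change of the ring, within the SE of PSMB1, went from 134, 141 and 156 CPM to 260, 244 and 262 CPM. PSMB2 (0.83 ± 0.14) and PSMB1 (0.81 ± 0.14) likewise turned to -0.23 and -0.24 on that scale. The non-catalytic PSMB3 fell furthest, from 118, 129 and 122 CPM to 10.6, 12.3 and 15.8 CPM, at -3.25 ± 0.15 (adjusted p = 2.75e-11). PSMB3 was at -0.40 at 24 h and at -2.79 at 48 h. The sum over the ring was 1127 ± 51.6 CPM in DMSO and 1122 ± 39.7 CPM in toyocamycin (SD, n = 3 each). This sum and the later sums over role groups were taken on the main scale (TMM) alone, and they move with the scale.

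The immunoproteasome subunits were all lower at 72 h. PSMB9 (GRCh38 chr6:32844136-32859851, plus strand), which lies beside PSMB8 (chr6:32840717-32844679, minus strand), was at 12.7, 12.5 and 12.9 CPM in DMSO and at 0.394, 0.656 and 0.701 CPM in toyocamycin, 21.3-fold lower (log2 -4.41 ± 0.24, adjusted p = 1.06e-10, edgeR). PSMB8 went from 75.2, 69.7 and 70.4 CPM to 35.3, 33.3 and 38.4 CPM, at -1.01 ± 0.13 (adjusted p = 3.06e-06). PSMB10 was 4.495, 3.53 and 4.18 CPM in DMSO and 2.27, 2.53 and 3.07 CPM in toyocamycin, at -0.63 ± 0.24 (adjusted p = 0.0245). With 56.1% of its transcript in exons of a same-strand gene and a call that was lost in 4 of the alternatives, including the replicate block, PSMB10 is the least certain. PSMB8 and PSMB9 were lower than DMSO already at 24 h, at -1.08 and -2.90, whereas at 2 h and 10 h no immunoproteasome gene was called in the main fits. With the replicate block, PSMB8 and PSMB9 were called higher at 2 h. At 10 h 2 genes of the group were higher with DESeq2, and 1 was lower with total counts alone. The tissue-restricted core subunits were close to absent. PSMA8 had 4 counts in toyocamycin replicate 2 at 10 h and none in the other 16 libraries, and PSMB11 had at most 7 counts in a toyocamycin library and none in DMSO.

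**Figure D3:**
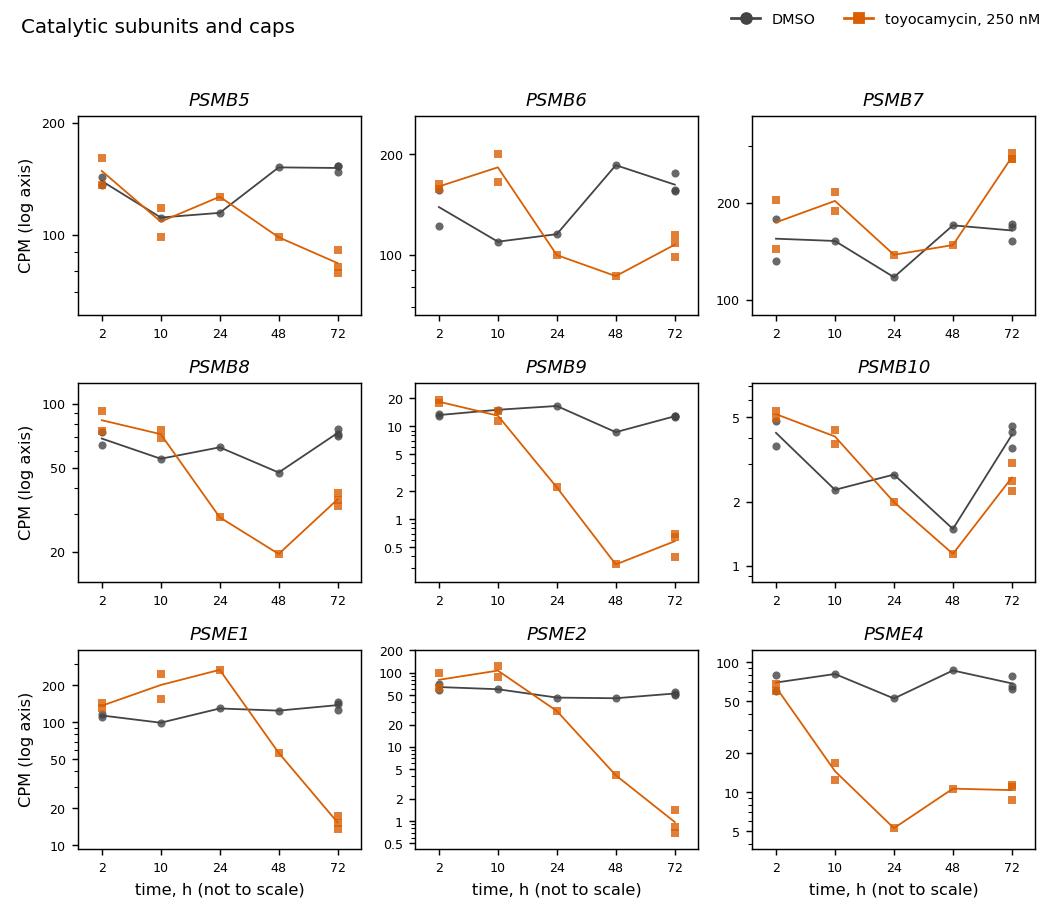
CPM on a log axis against time (spaced evenly, not to scale) in each of the 17 libraries for the constitutive catalytic subunits, the immunoproteasome subunits and 3 caps; circles are DMSO, squares toyocamycin, and lines join the means. PSMB9, PSME1 and PSME2 in toyocamycin leave the DMSO range by 48 h and lie lowest at 48 h or 72 h, while PSME4 lies below DMSO from 10 h.

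The ATPases of the 19S base form a ring of 6 different subunits, and at 72 h 1 was higher, 3 lower and 2 in neither group. PSMC3 (chr11:47418769-47426473) fell from 178, 182 and 167 CPM to 9.46, 11.8 and 11.3 CPM, 16.2-fold lower (log2 -4.01 ± 0.14, adjusted p = 1.81e-12, edgeR). PSMC5 and PSMC4 were at -2.94 ± 0.14 and -1.95 ± 0.12. PSMC2 rose from 128, 135 and 160 CPM to 488, 419 and 444 CPM, at 1.68 ± 0.13 (adjusted p = 8.45e-09). PSMC2 then made up 62.6% ± 0.78 (SD, n = 3) of all ATPase CPM, where in DMSO the leading member, PSMC3, held 23.3% ± 2.1. The summed ATPase CPM was 757 ± 42.0 in DMSO and 719 ± 63.6 in toyocamycin. PSMC3 was at 0.14 and not called at 10 h, and at -1.66 at 24 h and -3.89 at 48 h. PSMC1, whose call at 10 h was lower, had 83.2% of its transcript facing exons of NRDE2 on the other strand, and the strand setting of the counting is not given in the sources used here.

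Of the 12 other 19S subunits 7 were higher and 4 lower. ADRM1 (chr20:62302093-62308862), a ubiquitin receptor of the base, had 98.0, 87.8 and 52.3 CPM in DMSO and 743, 895 and 920 CPM in toyocamycin, 10.7-fold higher (log2 3.43 ± 0.27, adjusted p = 7.77e-09, edgeR). PSMD7, a lid subunit that pairs with the deubiquitinase (chr16:74296814-74306288), went from 42.8, 42.2 and 44.6 CPM to 425, 393 and 404 CPM, 9.43-fold higher (log2 3.24 ± 0.13). Both share bases with genes of the other strand, 26.7% and 51.6% of the transcript, and a part of reads from those genes in their counts was not tested. Also higher were PSMD12 (2.20 ± 0.14), PSMD14, the deubiquitinase of the lid (1.87 ± 0.17), PSMD6 (1.78 ± 0.13), PSMD3 (1.53 ± 0.14) and PSMD1 (0.44 ± 0.14, but -0.16 with total counts alone and -0.61 on the mitochondrial scale). PSMD11 (-1.35 ± 0.13), PSMD8 (-1.34 ± 0.13), the ubiquitin receptor PSMD4 (-1.06 ± 0.13) and the large base subunit PSMD2 (-0.65 ± 0.12) were lower. PSMD11 itself went from 160, 154 and 190 CPM to 72.1, 64.1 and 61.7 CPM. The sum of the group was 1821 ± 34.9 CPM in DMSO and 3702 ± 53.6 CPM in toyocamycin. Without ADRM1 and PSMD7, left out after their values were seen, it was 1699 ± 12.9 CPM against 2442 ± 32.7 CPM. The 3 libraries of each arm did not overlap on the main scale (TMM), the only one on which these sums were taken. Over all 19S subunits the median log2 fold change at 72 h was 0.17 on that scale. It was -0.43 with total counts alone and -0.87 on the mitochondrial scale. The sums were not taken on those scales, so how much of their rise remains there was not tested.

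**Figure D4:**
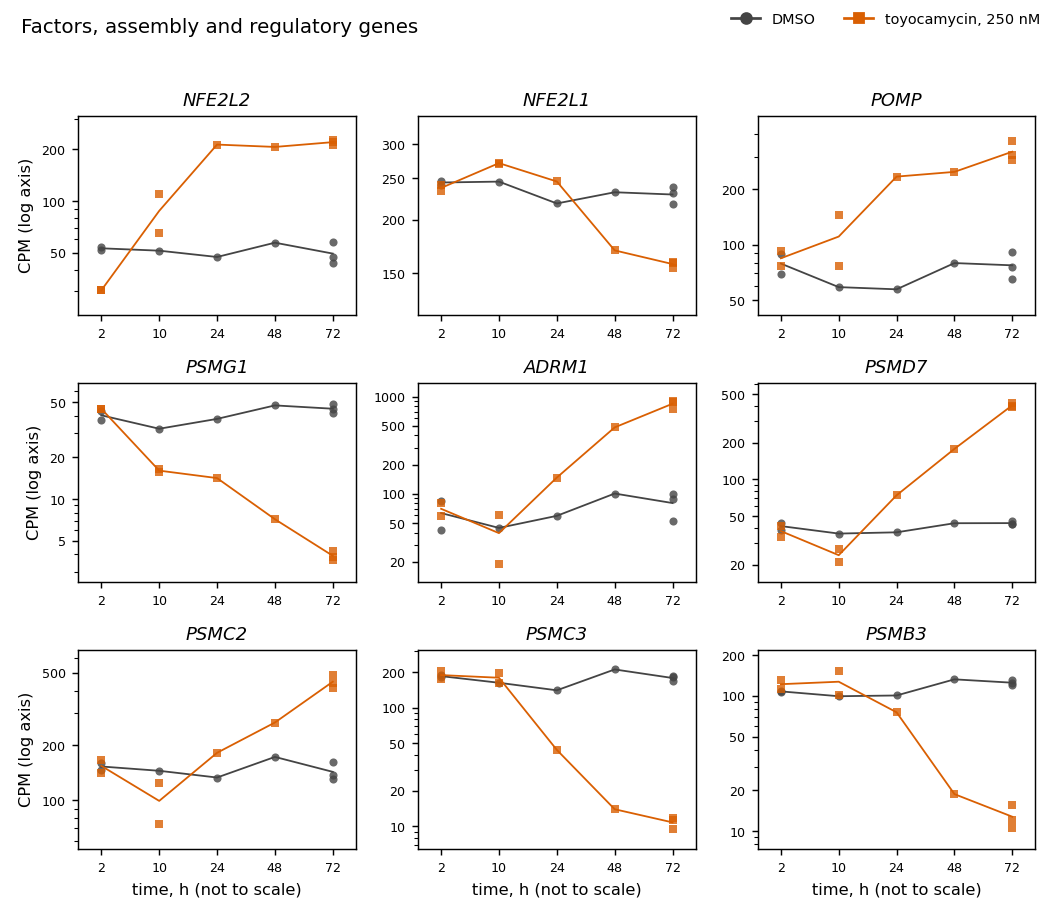
CPM on a log axis against time (spaced evenly, not to scale) in each of the 17 libraries for the transcription factors, 2 assembly factors, 4 regulatory particle genes and PSMB3; circles are DMSO, squares toyocamycin, and lines join the means. On this scale NFE2L2 lies below DMSO at 2 h and above it from 10 h, ADRM1, PSMD7 and PSMC2 separate upward from 24 h, and PSMC3 and PSMB3 separate downward.

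Among the 5 assembly factors of the 20S core 4 were higher and 1 lower (1 and 1 on the mitochondrial scale), and among the 3 of the 19S base 2 were higher and 1 lower. POMP, which guides the maturation of the core, had 64.7, 74.5 and 89.4 CPM in DMSO and 365, 292 and 307 CPM in toyocamycin, at 2.08 ± 0.16 (adjusted p = 6.12e-09, edgeR). PSMG1 moved the other way, from 41.2, 43.7 and 47.5 CPM to 3.84, 3.66 and 4.29 CPM, at -3.49 ± 0.16 (adjusted p = 1.66e-11). PSMG2, with which PSMG1 forms a chaperone pair, was at 0.72 ± 0.13, and the other pair, PSMG3 and PSMG4, at 0.80 ± 0.11 and 1.08 ± 0.16; on the mitochondrial scale these 3 turned to -0.33, -0.28 and -0.02. PSMD10, a 19S base chaperone, went from 24.4, 28.0 and 33.6 CPM to 153, 137 and 128 CPM, at 2.28 ± 0.17. PSMD9, another, was low: 0.880, 0.824 and 0.718 CPM in DMSO and 9.17, 6.56 and 9.02 CPM in toyocamycin, at 3.35 ± 0.26, with 28.8% of its transcript in exons of a same-strand gene. PSMD5 had 28.9, 24.96 and 31.3 CPM against 20.8, 18.6 and 18.1 CPM, at -0.57 ± 0.16, and lost its call with DESeq2.

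Each of the 4 alternative caps was called lower and the inhibitor higher. PSME2 went from 51.4, 54.2 and 49.9 CPM in DMSO to 0.690, 0.844 and 1.40 CPM, 52.0-fold lower (log2 -5.70 ± 0.26, adjusted p = 1.93e-11, edgeR). Its partner PSME1 (chr14:24136163-24138967), which lies beside it (PSME2, chr14:24143362-24147570), went from 125, 138 and 146 CPM to 17.2, 15.4 and 13.8 CPM, at -3.14 ± 0.14. PSME4, at 64.4, 60.8 and 77.4 CPM against 11.4, 8.81 and 11.1 CPM, was at -2.69 ± 0.17 and at 10 h had stood at 12.4 and 16.7 CPM against 80.9 CPM. PSME3 was called lower at -0.29 ± 0.13 (adjusted p = 0.056), but was at 0.04 with DESeq2 size factors and lost its call in the fit with the replicate block. PSMF1, the PI31 inhibitor, had 133, 145 and 131 CPM against 206, 224 and 221 CPM and was at 0.67 ± 0.12 and turned to -0.41 on the mitochondrial scale.

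The 2 transcription factors ended on opposite sides. NFE2L2 had 43.3, 46.5 and 56.6 CPM in DMSO and 222, 229 and 215 CPM in toyocamycin at 72 h, 4.55-fold higher (log2 2.19 ± 0.13, adjusted p = 2.75e-10, edgeR). NFE2L1 had 228, 235 and 214 CPM against 160, 156 and 160 CPM, at -0.51 ± 0.11 (adjusted p = 0.000487). NFE2L1 held 82.2% ± 2.7 (SD, n = 3) of their joint CPM in DMSO and 41.7% ± 1.1 in toyocamycin.

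Per transcript length, the order of the members changed. In DMSO at 72 h the highest was PSMA7, with 303 ± 23.6 CPM per kb (SD, n = 3), followed by PSMB4 with 280 ± 14.3, which lie within their spread of each other. In toyocamycin ADRM1 led with 618 ± 69.6 CPM per kb, up from rank 20, followed by PSMD3 with 334 ± 34.8, while PSMC3 dropped from 114 ± 5.32 to 7.05 ± 0.803. Over the 29 constitutive subunits of the 20S and 19S without large same-strand overlap, the SD of log2 CPM per kb within a library was 1.02 to 1.19 in the 8 DMSO libraries and 1.11 and 1.203 in the 2 h toyocamycin libraries. Under toyocamycin it was 1.52 and 1.53 after 10 h, 1.41 after 24 h, 1.504 after 48 h, and 1.68 to 1.74 after 72 h. With PSMA1, PSMA2 and PSMA6 included, the SD was 1.74 to 2.02 in DMSO and 1.80 to 1.86 in toyocamycin at 72 h, so the wider spread is not seen over all 32. Over the 29, the highest subunit exceeded the lowest by 11.8 to 20.6 times in DMSO and by 84.6 to 90.9 times in toyocamycin at 72 h. These 29 lay further apart in each treated library from 10 h on than in any DMSO library. All 32 did not: their SD in toyocamycin was 1.614 at 24 h and 1.635 at 48 h, below that of each DMSO library.

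**Figure D5:**
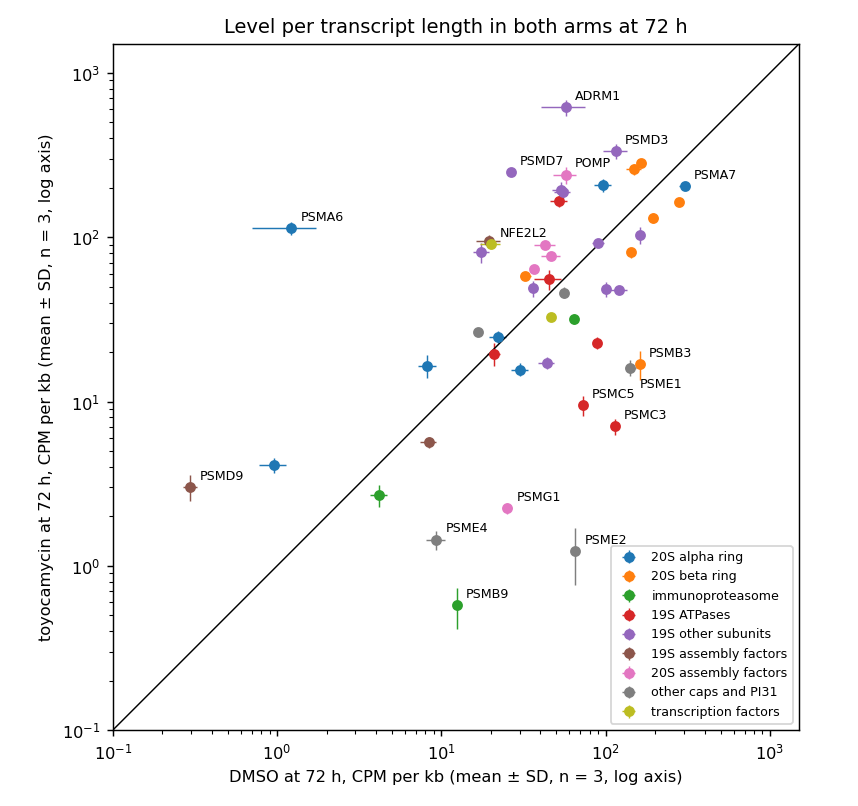
Mean CPM per kb of canonical transcript at 72 h in DMSO (horizontal log axis) and toyocamycin (vertical log axis) for members above 0 in both arms, with SD over 3 libraries and the line of equal levels. ADRM1, PSMD7 and PSMA6 lie far above the line, PSMC3, PSME1, PSME2, PSMB3, PSMB9 and PSMG1 far below.

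The effect at 72 h differed from that at 2 h in 44 members, with 23 higher and 21 lower by the test of the difference itself (46% and 42% of 50, against 38% and 38.1% of all genes). With total counts alone 13 and 25 were called, against 4526 and 6618 of all 14491 genes. The mitochondrial scale gave 6 and 22, against 2810 and 5862. The difference from 10 h, a comparison added after the data had been seen, was called higher in 19 and lower in 18 of 51 members (all genes 25.4% and 26.6%). On the mitochondrial scale 10 and 7 members were called, against 2536 and 2500 of all 16521 genes. Some members turned around, though the 10 h side rests on a single DMSO library of batch 2, while all 72 h libraries were of batch 1. PSMD8 lost its 10 h call without toyocamycin replicate 1. The 6 genes PSMA7, PSMB4, PSMB6, PSMD8, PSME1 and PSME2 were higher at 10 h and lower at 72 h, and the 4 genes PSMD6, PSMD7, PSMG2 and PSMG3 were lower at 10 h and higher at 72 h; the difference was called in all 10. A further 6 were higher and 5 lower at both times. On the mitochondrial scale PSMB4, PSMB6, PSMD8, PSME1 and PSME2 were below 0 at 10 h as well, and PSMG2 and PSMG3 below 0 at 72 h as well, which leaves PSMA7, PSMD6 and PSMD7 with opposite signs. In the control arm, from 2 h to 72 h of DMSO, 0 of 50 were higher (0 also at an unadjusted p under 0.05 and by DESeq2) and 1 lower (PSMD9, -1.65), against 10.2% and 11.4% of all genes. Leaving out 72 h replicate 1 gave 2 lower. Leaving out 2 h replicate 1 left only the batch 2 library at 2 h, against 72 h libraries of batch 1, so time and batch cannot be told apart there. The members' median log2 fold change was then -0.08, and it was 0.03 without 2 h replicate 2.

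Genes that work with the proteasome, from lists set apart from the members, were split at 72 h as well, where 47% of all genes were called higher and 41.9% lower. Of 11 genes for the processing and partners of NFE2L1, 5 were higher and 6 lower, with a median log2 fold change of -0.69. The small MAF partner MAFF was at 4.99 ± 0.14, from 31.0, 32.9 and 27.9 CPM in DMSO to 965, 1019 and 931 CPM, and SEL1L, of the machinery that extracts NFE2L1 from the endoplasmic reticulum, at -3.52 ± 0.18. Of 16 deubiquitinases, ligases and receptors that bind the proteasome, 10 were higher and 4 lower, with a median of 0.46, which became 4 and 6 with a median of -0.61 on the mitochondrial scale. On that scale all 14491 genes gave 4204 higher and 7362 lower, with a median of -0.89. AKIRIN2, which brings proteasomes into the nucleus, was at 3.94 ± 0.15, and ECPAS, a scaffold of the 26S, at -4.66 ± 0.18. Of 6 ubiquitin genes and E1 enzymes 3 were higher and 3 lower, the lowest being UBA6, an E1 enzyme, at -3.01 ± 0.21.

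At 72 h 47% of all genes were called higher and 41.9% lower. Of the 14 genes of antigen processing and interferon signalling 13 were lower and 1 higher, with a median log2 fold change of -2.40. The exception was B2M, the light chain of class I molecules (0.40 ± 0.17), which was at -0.20 with total counts alone and -0.64 on the mitochondrial scale, and the lowest was NLRC5, the activator of class I genes (-4.40 ± 0.27). At 10 h 5 of these genes were higher and 4 lower, where 20.4% of all genes were called higher and 24.4% lower. With total counts alone 1 was higher and 7 lower, against 1872 and 5676 of all 16521 genes. The mitochondrial scale gave 0 and 6, against 503 and 5362. At 24 h 1 of 14 was more than 2-fold higher and 5 lower, against 29.7% and 27.8% of all genes. At 48 h the counts were 0 and 9, against 38.1% and 29.9% of all genes.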

How the data were processed

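Polyadenylated RNA of YB5 cells was sequenced in 17 libraries (8 DMSO, 9 toyocamycin). The authors deposited raw counts per gene, made with STAR 2.7.5a (GeneCounts) on GRCh38 with Ensembl annotation; this counting drops reads that overlap several genes. A deposited table of the authors' own edgeR fold changes and p-values was not used, nor was 1 column of the count table that matched no sample. Members and lists were chosen with earlier results of these data known. Named genes were the constitutive and inducible catalytic subunits, the 2 transcription factors, POMP, and the highest and lowest of each role group at 2 h and 72 h; other members named were chosen after their values were seen. In the pathway lists the highest and lowest gene at 72 h were named; 1 of these is not reported here. Counts were filtered (filterByExpr), scaled (TMM) and tested with edgeR 4.0.16 (R 4.3.3; quasi-likelihood, edgeR 3 form), with Benjamini-Hochberg adjustment over all genes and an adjusted p under 0.1 as the threshold. The fit held 14 libraries (14491 genes), and for 10 h 17 libraries (16521 genes). CPM use the scaling of the same fit, and the 17-library one in time courses and for markers; CPM per kb divide by the canonical transcript of GENCODE. The 2 h replicate numbers pair the libraries because the labels give each number its own batch (r = 0.34 between deviations). Alternatives were DESeq2 1.42.0, other scalings, filters, thresholds and fits, a batch term, a replicate block and leaving out each library. The scripts were tested on simulated data. Depth per library was 8735465 to 22121364 counts.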

Additional observations from a re-analysis of the deposited data

Results flagged for a closer look

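The effect of toyocamycin differed between time points, by the test of the difference itself, in 23 members (higher at 72 h than at 2 h) and 21 members (lower). Of all genes, 38% and 38.1% were called so. Against 10 h it differed in 19 (higher) and 18 (lower), where 25.4% and 26.6% of all genes were called. Among the members named by the fixed rule, which takes the highest and lowest of each role group and so leaves out others such as PSMD7 and PSME1, the log2 effect at 72 h minus that at 2 h was above 0 in PSMA6 (6.14), ADRM1 (3.28), PSMD9 (3.07), NFE2L2 (3.00), PSMD12 (2.53), POMP (1.98), PSMC2 (1.67), PSMA2 (1.61), PSMG4 (0.83), PSMG2 (0.77), PSMB1 (0.77), PSMB2 (0.76), PSMF1 (0.65) and PSMB7 (0.62). It was below 0 in PSME2 (-6.02), PSMB9 (-4.89), PSMC3 (-4.04), PSMG1 (-3.64), PSMB3 (-3.43), PSME4 (-2.57), PSMC4 (-2.10), PSMD4 (-1.30), PSMB8 (-1.30), PSMD11 (-1.22), PSMA4 (-1.08), PSMB10 (-0.92), PSMB5 (-0.91), PSMB6 (-0.77) and NFE2L1 (-0.46). NFE2L2 was called lower at 2 h and higher at 72 h. With the 2 h libraries paired by batch, PSMB8, PSMB9, PSME1 and PSME2 (higher, then lower) and PSMD12 (lower, then higher) were also called in opposite directions. The main fit did not call PSMB8, PSMB9, PSME1, PSME2 or PSMD12 at 2 h. The paired fit called 1033 of all 11848 genes higher and 2217 lower.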

How the results depend on the processing

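Counts of members kept within 1.5 times of the reported ones except as follows. With the replicate block 4 were higher and 2 lower at 2 h, where 1033 of all 11848 genes were higher and 2217 lower. At 72 h same-numbered libraries share only a number (r from -0.13 to 0.06): the block gave 25 higher and 21 lower. On the mitochondrially encoded genes as scale, 0 were lower at 2 h, 1 was higher at 10 h, 10 were higher at 72 h, 6 had a higher effect at 72 h than at 2 h, 10 had a higher and 7 a lower effect at 72 h than at 10 h, 0 were lower in DMSO at 72 h than at 2 h, and 1 was higher and 43 lower at 24 h and 1 higher and 37 lower at 48 h. With total counts alone, 4 were higher and 22 lower at 10 h, 13 had a higher effect at 72 h than at 2 h, 3 were lower in DMSO at 72 h, and 4 were higher and 24 lower at 24 h and 6 higher and 26 lower at 48 h. At 10 h DESeq2 called 20 higher, a batch term 19 higher, and the 10 h libraries alone 2 higher and 5 lower. Over all genes, DESeq2 called 4709 of 14599 higher and the batch term 6239 of 16521. The 10 h libraries alone gave 1300 higher and 2320 lower of 14566. For DMSO, the batch term gave 2 lower, as did leaving out DMSO 72 h replicate 1. Leaving out DMSO 2 h replicate 1 or 2 moved these counts too, but left 1 DMSO library at 2 h. Without replicate 1 that library was of batch 2, unlike the 72 h libraries. Leaving out single libraries at 2 h, 10 h or 72 h moved no other count by more than 1.5 times.

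Log2 values that changed sign with a call on either side were, with total counts alone, PSMF1 at 10 h (-0.44), PSMD1 (-0.16), PSMD13 (-0.56) and PSMA5 (-0.44) at 72 h, and PSMA5 in the difference of 72 h and 2 h (-0.51), and with DESeq2 size factors PSME3 at 72 h (0.04). On the mitochondrial scale they were NFE2L2 (-0.29), POMP (-0.13), PSMB2 (-0.34), PSMB4 (-0.36), PSMB6 (-0.37), PSMD8 (-0.59), PSME1 (-0.05) and PSME2 (-0.37) at 10 h; PSMA1 (-0.04), PSMA5 (-0.88), PSMB1 (-0.24), PSMB2 (-0.23), PSMB7 (-0.28), PSMD1 (-0.61), PSMD13 (-1.02), PSMF1 (-0.41), PSMG2 (-0.33), PSMG3 (-0.28) and PSMG4 (-0.0245) at 72 h; and, among members named by rule, PSMB1 (-0.17), PSMB2 (-0.19), PSMB7 (-0.35), PSMF1 (-0.27), PSMG2 (-0.13) and PSMG4 (-0.0379) in the difference. Mitochondrial transcripts may themselves change, which was not tested. With 250 bases before the start alone, 14 members held the antioxidant response element core (10.9% of all windows), 21 the NF-Y box (32%), 12 the ETS site (8.52%), 6 the interferon-stimulated response element (6.88%) and 7 the gamma-activated site (6.57%).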
